A study of Mus musculus with 8 samples.

Results

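The adenosine generation and sensing group holds 7 genes of the extracellular purine pathway, Entpd1, Nt5e, Adora2a, Dpp4, Ada, Slc29a1 and P2rx7. They were taken by gene symbol from a table of read counts that lists 27594 genes, and each symbol matched 1 gene. RNA sequencing was carried out on regulatory T (Treg) cells from C57BL/6 mice aged 6 to 8 weeks. WT cells came from Foxp3-YFP-Cre mice, and Foxp1-deficient cells came from Foxp1fl/fl Foxp3-YFP-Cre mice, in which Cre is made from the Foxp3 locus and Foxp1 is therefore deleted only once a cell expresses Foxp3. WT cells carry the same Cre allele without the floxed Foxp1 gene. CD4+YFP+ cells were sorted from spleen and peripheral lymph nodes into resting Treg (rTreg) cells, which are CD44low CD62Lhigh, and activated Treg (aTreg) cells, which are CD44high CD62Llow. Each of the 4 groups had 2 replicates, giving 8 libraries. The replicates of a group differed in sex, as given below for Xist and Y-chromosome genes, and so came from different mice, but the labels do not say how many mice went into a library. P-values measure the spread between replicates, pooled over the 4 groups in a joint fit of all 8 libraries, once the replicate number is accounted for. The estimate of that spread for a gene also draws on the other genes.

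Treg cells restrain other immune cells in part by turning the extracellular danger signal ATP into adenosine. CD39 (Entpd1) removes phosphates from ATP and ADP to give AMP, and CD73 (Nt5e) converts AMP to adenosine. Adenosine then acts through the A2a receptor (Adora2a), which raises cAMP and dampens T cell receptor signalling. Adenosine is removed by adenosine deaminase (Ada), which makes inosine, or is carried across the membrane by the equilibrative transporter ENT1 (Slc29a1). CD26 (Dpp4) is a surface peptidase that in humans also anchors adenosine deaminase outside the cell. P2X7 (P2rx7) is a channel opened by ATP itself and so senses the substrate of CD39.

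Between 6373170 and 15268623 counts fell on genes in each library, and CPM (TMM-normalized counts per library size) was used for levels of 1 gene across libraries. A floor of 3 counts was 0.192 CPM in the deepest library and 0.478 CPM in the shallowest, and covers counting error only. Replicate 1 of each group had 2143 to 4356 counts on Y-chromosome genes and replicate 2 had none, while Xist had at most 3 counts in replicate 1 and at least 15098 in replicate 2, so the replicate numbers also differ in sex. The Foxp1 count covers the whole gene and does not isolate the deleted exons. In rTreg cells it was 353 and 384 CPM in WT against 342 and 338 CPM without Foxp1, and in aTreg cells 234 and 230 CPM against 126 and 102 CPM. The genotype therefore rests on the labels in rTreg cells. Foxp3 was at 429 to 646 CPM in every library, and Cd44 was at 29.6 to 45.3 CPM in rTreg and 174 to 214 CPM in aTreg cells, in the direction of the gate on CD44. The 4 granulocyte markers examined summed in rTreg cells to at most 1.01 CPM in WT and 5.34 to 15.1 CPM without Foxp1, and in aTreg cells to 2.63 to 3.08 CPM in WT and 2.88 to 24.6 CPM without Foxp1. The 4 plasma cell markers, of which Xbp1 and Prdm1 are also made by Treg cells, summed in rTreg cells to 89.2 to 101 CPM in WT and 111 to 126 CPM without Foxp1, and in aTreg cells to 127 to 152 CPM in WT and 175 to 177 CPM without Foxp1. Among them Jchain was at 1.84 and 0.314 CPM in WT rTreg and at 7.33 and 4.77 CPM in Foxp1-deficient rTreg libraries. Sdc1 was below the floor in all of these, at 0.184 and 0.0786 CPM in WT and 0.159 and 0 CPM without Foxp1. Prdm1 was at 9.21 and 9.35 CPM against 7.65 and 10.8 CPM, and Xbp1 at 89.4 and 79.4 CPM against 111 and 95.8 CPM. The part of these markers in the results was not tested.

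All 7 genes passed the filter on low counts, which kept 14540 genes for testing. Levels of different genes were compared per length of transcript, as FPKM (fragments per kilobase of transcript, scaled by the library total). In WT rTreg cells the highest FPKM was that of P2rx7 (33.6 ± 1.57, SD, n = 2), and the lowest was that of Entpd1 (4.56 ± 0.264, SD, n = 2). Dpp4 (15.9 ± 0.0611), Nt5e (15.5 ± 10.3) and Adora2a (13.5 ± 0.733) came next below P2rx7 in FPKM, and these neighbours did not differ beyond their spread because the Nt5e libraries lay at 8.16 and 22.8. Slc29a1 (9.61 ± 0.471) and Ada (8.87 ± 1.73) also overlapped in FPKM. In Foxp1-deficient rTreg cells, Entpd1 fell to 1.78 ± 0.0534 FPKM (SD, n = 2), a level above that of 29.6% of the genes tested, while P2rx7 stood at 30.1 ± 5.59 FPKM. In aTreg cells of both genotypes P2rx7, Nt5e and Adora2a were each at a mean of 42.9 to 59.1 FPKM, above at least 90.6% of the genes tested. Ada had the lowest FPKM of the 7 in aTreg cells, at 4.50 ± 2.47 in WT and 1.84 ± 0.753 in Foxp1-deficient cells (SD, n = 2).

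**Figure D1:**
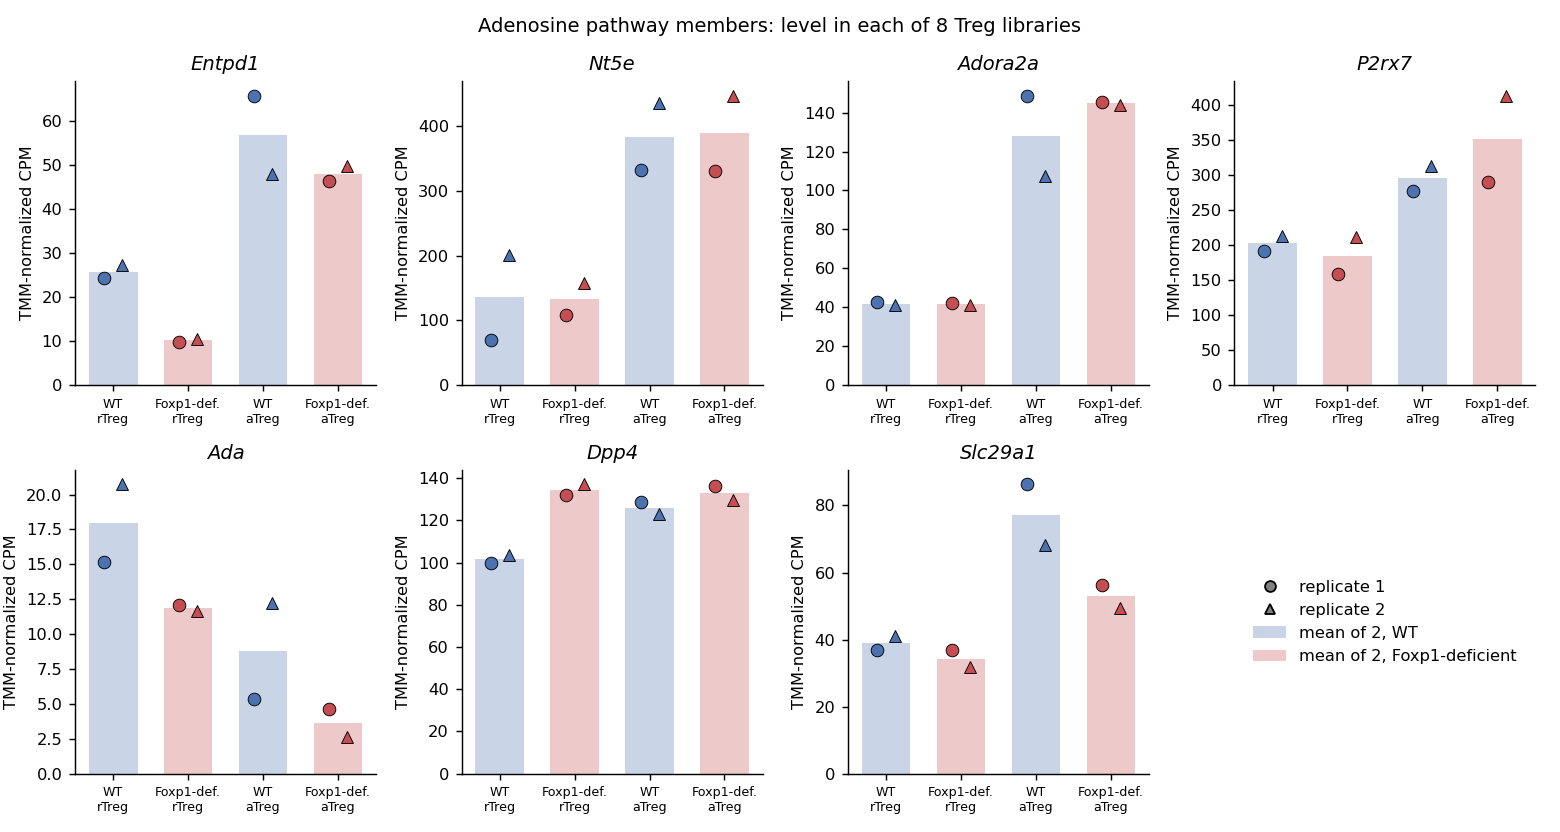
Level of each of the 7 genes (y axis, TMM-normalized CPM, linear from 0) in the 4 groups (x axis). Points are libraries, circles replicate 1 and triangles replicate 2, and bars are means of 2 libraries; Entpd1 shows both Foxp1-deficient rTreg libraries at 9.88 and 10.5 CPM, below the 2 WT rTreg libraries.

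Each comparison was tested with edgeR's quasi-likelihood test over all 14540 genes with Benjamini-Hochberg adjustment, and every adjusted p below is from that test unless another is named. To be called, a gene needed an adjusted p under 0.05 and a difference of 1.5-fold or more for genotypes and 2-fold or more for subsets. Between Foxp1-deficient and WT rTreg cells, 1 of the 7 genes was called, Entpd1, which was lower. Over all genes tested 5.6% were called in that comparison. Between the genotypes in aTreg cells 0 of the 7 were called by edgeR, DESeq2 or limma-voom. Over all 14540 genes, edgeR called 4.03%, DESeq2 called 454 genes and limma-voom 598. Ada, Slc29a1 and P2rx7 (3 of 7) had an unadjusted edgeR p under 0.05 there, as did 23.3% of all genes. Between aTreg and rTreg cells, 3 of the 7 (Entpd1, Nt5e and Adora2a) rose in WT cells, where 12.3% of all genes were called, and the same 3 rose and Ada fell in Foxp1-deficient cells, where 15.7% were called. Leaving out 1 library moved these counts by more than 1.5 times in 4 cases. The count fell without Foxp1-deficient rTreg replicate 2 and rose without WT rTreg replicate 2 (genotype in rTreg cells). It also rose without WT aTreg replicate 1 (genotype in aTreg cells) and without WT aTreg replicate 2 (subsets in WT cells). Over all genes, fewer were called in each of these 4 fits than with every library. With no fold minimum, 2 of the 7 passed between genotypes in rTreg cells (12% of all genes) and 1 in aTreg cells (6.88%), and 6 passed between subsets in WT cells (31.9%) and 6 in Foxp1-deficient cells (40.1%). The median log2 fold change of the 7 genes was 0.97 between subsets in WT cells and 0.92 in Foxp1-deficient cells, beside -0.0046 and -0.018 over all genes tested. Between genotypes it was -0.14 in rTreg and 0.016 in aTreg cells, beside 0.0029 and 0.0018. The 2 genotype comparisons and the 2 subset comparisons use the same 8 libraries and are not independent.

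**Figure D2:**
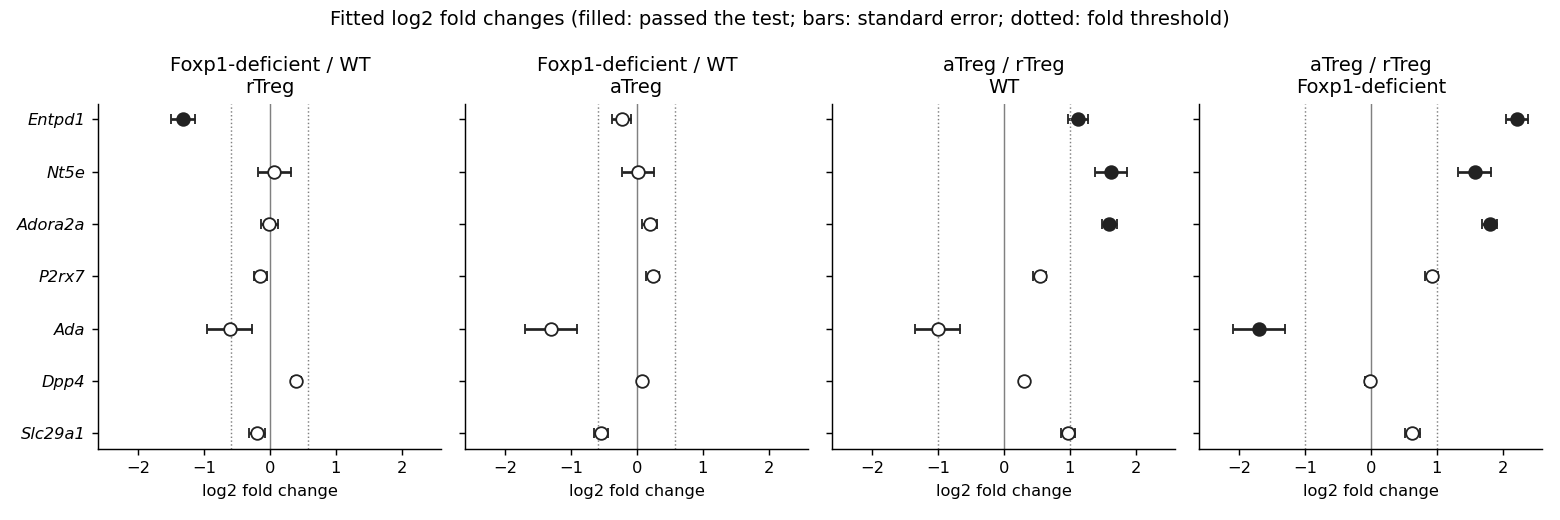
Fitted log2 fold change (x axis) of each gene (y axis) between genotypes in rTreg and aTreg cells and between subsets in WT and Foxp1-deficient cells. Points are estimates over 2 libraries per group with the standard error as bars, filled where the gene was called, and dotted lines mark the fold threshold; Entpd1 is filled in 3 of the 4 panels.

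Entpd1 (ENSMUSG00000048120, chr19:40612366-40741602, plus strand of GRCm38) encodes CD39, the enzyme that starts the breakdown of extracellular ATP. RefSeq gives 2 start sites for it on GRCm38.p6. The windows from 250 bases before to 50 bases after each are shown because Entpd1 was the only member called between genotypes. Capitals mark TGACG, the half-site of the cAMP response element, which reads CGTCA where it lies on the other strand.
Entpd1 upstream start, chr19:40612116-40612415, plus strand: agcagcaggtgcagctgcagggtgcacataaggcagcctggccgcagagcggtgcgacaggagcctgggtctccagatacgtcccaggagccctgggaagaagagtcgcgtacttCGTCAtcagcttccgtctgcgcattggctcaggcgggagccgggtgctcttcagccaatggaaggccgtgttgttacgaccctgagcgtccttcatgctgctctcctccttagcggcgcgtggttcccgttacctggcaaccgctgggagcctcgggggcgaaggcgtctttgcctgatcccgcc
Entpd1 downstream start, chr19:40659520-40659819, plus strand: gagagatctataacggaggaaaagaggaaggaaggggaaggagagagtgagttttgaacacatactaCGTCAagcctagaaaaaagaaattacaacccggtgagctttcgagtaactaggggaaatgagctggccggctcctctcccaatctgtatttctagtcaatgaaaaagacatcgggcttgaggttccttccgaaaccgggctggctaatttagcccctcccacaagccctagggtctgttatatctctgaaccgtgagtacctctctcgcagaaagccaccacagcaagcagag
Nt5e, chr9:88327359-88327658, plus strand, for comparison: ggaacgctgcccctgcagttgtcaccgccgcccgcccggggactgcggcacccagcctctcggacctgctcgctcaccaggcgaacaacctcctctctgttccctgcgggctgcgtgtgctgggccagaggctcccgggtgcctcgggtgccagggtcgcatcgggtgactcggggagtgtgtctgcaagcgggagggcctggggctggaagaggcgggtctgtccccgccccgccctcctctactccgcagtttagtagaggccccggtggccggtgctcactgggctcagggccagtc
The half-site begins 135 and 183 bases before the upstream and downstream Entpd1 starts, and the Nt5e window has no such match on either strand. RefSeq windows were found for 6 of the 7 genes, all but Adora2a, 15 windows in all. Of these, 3 held TGACG on either strand, the third being 1 of the 8 Slc29a1 windows, and 20.8% of all 32817 promoter windows held it. The full palindrome TGACGTCA was in 0 of the 15 windows and in 1.79% of all windows. The forkhead words TGTTTAC and TATTTAC, searched on both strands, were in 0 of the 15 windows and in 3.65% and 3.04% of all windows. A match is a description of these letters and no match says only that they are not in these windows.

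In WT cells Entpd1 stood at 24.2 and 27.2 CPM in the rTreg and 65.7 and 47.9 CPM in the aTreg libraries (replicates 1 and 2, the order used throughout), and in Foxp1-deficient cells at 9.88 and 10.5 CPM in the rTreg and 46.3 and 49.7 CPM in the aTreg libraries. Both Foxp1-deficient rTreg libraries lay below every other library, and the aTreg groups overlapped. In rTreg cells Entpd1 was 2.49-fold lower without Foxp1 (log2 fold change -1.32 ± 0.18, SE, adjusted p = 0.00485), and the 2 pairs gave -1.28 and -1.35. The call was lost without Foxp1-deficient rTreg replicate 2, where the log2 fold change was -1.42 (edgeR adjusted p = 0.0692), and in limma on log2(FPKM + 1) with no filter, where it was -0.998 (adjusted p = 0.0851). In aTreg cells the log2 fold change was -0.23 ± 0.14 (SE, adjusted p = 0.390), with -0.50 in pair 1 and 0.052 in pair 2. Leaving out WT aTreg replicate 1 turned its sign, to 0.067.

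Entpd1 rose from rTreg to aTreg cells in both genotypes, by 2.18-fold in WT cells (log2 fold change 1.13 ± 0.15, SE, adjusted p = 0.00111) and by 4.65-fold in Foxp1-deficient cells (2.22 ± 0.17, adjusted p = 5.64e-05). In WT cells it fell short of the 2-fold threshold without WT rTreg replicate 1 (log2 fold change 0.99) and without WT aTreg replicate 1 (0.84). The difference between the genotype effects in the 2 subsets was 1.09 ± 0.23 on the log2 scale (SE, edgeR interaction term, adjusted p = 0.101), with 0.77 in pair 1 and 1.40 in pair 2. It passed with DESeq2 (1.10, adjusted p = 0.0172), with no filter on low counts (1.12, edgeR adjusted p = 3.34e-04) and without WT aTreg replicate 1 (1.40, edgeR adjusted p = 0.00961). Its adjusted p over all alternatives other than left-out libraries ran from 3.34e-04 to 0.399. B cells and some myeloid cells also carry CD39. The 5 B cell markers summed in rTreg cells to 7.92 to 8.96 CPM in WT and 9.17 to 9.56 CPM without Foxp1, and in aTreg cells to 19.2 to 19.9 CPM in WT and 18.3 to 21.2 CPM without Foxp1. Cd79b gave most of the aTreg sum. Ms4a1, a defining B cell marker, had at most 4 counts in any library. The 6 myeloid markers summed in rTreg cells to 8.10 to 8.17 CPM in WT and 8.38 to 10.5 CPM without Foxp1. In aTreg cells they summed to 6.86 to 7.35 CPM in WT and 5.10 to 10.5 CPM without Foxp1. In rTreg libraries Cd68 was at 6.35 and 7.38 CPM in WT and 3.83 and 6.64 CPM without Foxp1. Lyz2 was at 0.921 and 0.236 CPM against 3.83 and 0.939 CPM, and Itgam at 0.184 and 0.314 CPM against 1.28 and 0.650 CPM. Csf1r, Adgre1 and Cd14 had at most 8 counts in any library. In such sorted pools fewer cells of a type and less RNA per cell cannot be told apart.

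Nt5e (ENSMUSG00000032420, chr9:88327197-88372092, plus strand) encodes CD73, which makes adenosine from AMP. In WT cells Nt5e stood at 69.7 and 201 CPM in the rTreg and 333 and 436 CPM in the aTreg libraries, and in Foxp1-deficient cells at 108 and 157 CPM in the rTreg and 332 and 448 CPM in the aTreg libraries. Every aTreg library lay above every rTreg library, and in all 4 groups replicate 2 was higher than replicate 1, by 1.31-fold to 2.89-fold. Nt5e rose 3.08-fold from rTreg to aTreg cells in WT (log2 fold change 1.62 ± 0.25, SE, adjusted p = 0.00201) and 2.97-fold in Foxp1-deficient cells (1.57 ± 0.25, adjusted p = 0.00173). Without the replicate block the WT rise was 1.503 on the log2 scale and no longer passed (edgeR adjusted p = 0.0681), and without WT rTreg replicate 2 it was 2.23. Between genotypes Nt5e differed by 0.07 ± 0.25 in rTreg cells (log2, SE, adjusted p = 0.897) and by 0.016 ± 0.24 in aTreg cells (adjusted p = 0.979). The rTreg pairs went opposite ways, 0.63 and -0.35, and the value rested on single libraries. It was -0.41 (edgeR adjusted p = 0.0483) without WT rTreg replicate 1, below the 1.5-fold minimum, and 0.67 without WT rTreg replicate 2, where it was called higher (edgeR adjusted p = 0.0182).

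The balance of the 2 enzymes was followed as the ratio of Nt5e to Entpd1 FPKM within each library. Among rTreg libraries this ratio was 1.87 and 4.80 in WT and 7.08 and 9.68 without Foxp1, and among aTreg libraries it was 3.28 and 5.91 in WT and 4.65 and 5.85 without Foxp1. Both Foxp1-deficient rTreg libraries lay above the other 6 libraries, and the remaining 3 groups overlapped. With 2 libraries per group no exact permutation test of the ratio could pass the threshold, and none was run.

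**Figure D3:**
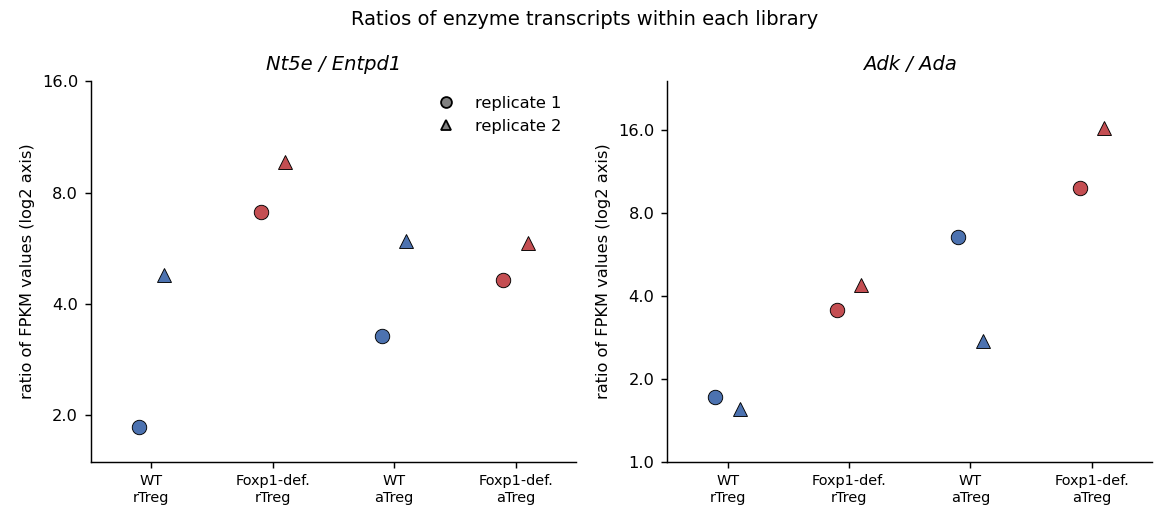
Ratio of FPKM values (y axes, log2 scale) of Nt5e to Entpd1 and of Adk to Ada in each library (points, circles replicate 1 and triangles replicate 2) of the 4 groups (x axes). The Nt5e to Entpd1 ratio is highest in the Foxp1-deficient rTreg libraries (7.08 and 9.68), and the Adk to Ada ratio is lowest in the WT rTreg libraries (1.72 and 1.55).

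Adora2a (ENSMUSG00000020178, chr10:75316877-75334784, plus strand) encodes the A2a receptor. In WT cells Adora2a stood at 42.7 and 40.9 CPM in the rTreg and 149 and 107 CPM in the aTreg libraries, and in Foxp1-deficient cells at 41.9 and 41.0 CPM in the rTreg and 146 and 144 CPM in the aTreg libraries. The 4 rTreg libraries lay within 40.9 to 42.7 CPM whatever the genotype, far below all aTreg libraries. Adora2a rose 3.03-fold from rTreg to aTreg cells in WT (log2 fold change 1.60 ± 0.12, SE, adjusted p = 6.49e-05) and 3.48-fold in Foxp1-deficient cells (1.80 ± 0.12, adjusted p = 2.72e-05). Between genotypes it differed by -0.0059 ± 0.12 in rTreg cells (log2, SE, adjusted p = 0.987) and by 0.19 ± 0.11 in aTreg cells (adjusted p = 0.339). Leaving out WT aTreg replicate 2 turned the sign of the second value, to -0.022. The other adenosine receptors were hardly detected, since no library held more than 1 count of Adora1, 2 of Adora2b or 3 of Adora3, and none of these was tested. Adora2a was thus the adenosine receptor measured above the floor in these cells.

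P2rx7 (ENSMUSG00000029468, chr5:122643911-122691432, plus strand) encodes the ATP-gated channel P2X7. In WT cells P2rx7 stood at 192 and 212 CPM in the rTreg and 278 and 313 CPM in the aTreg libraries, and in Foxp1-deficient cells at 159 and 211 CPM in the rTreg and 291 and 414 CPM in the aTreg libraries. All aTreg libraries lay above all rTreg libraries, and the genotypes overlapped within each subset. P2rx7 was 1.46-fold higher in aTreg than in rTreg cells in WT (log2 fold change 0.54 ± 0.095, SE, adjusted p = 0.00397) and 1.90-fold higher in Foxp1-deficient cells (0.92 ± 0.096, adjusted p = 2.31e-04), in both cases under the 2-fold minimum. Without Foxp1-deficient aTreg replicate 1 the second value was 1.06 and passed it. The genotype effect was -0.14 ± 0.096 in rTreg cells (log2, SE, adjusted p = 0.381) and 0.24 ± 0.095 in aTreg cells (adjusted p = 0.183). The difference between these effects was 0.38 ± 0.13 (SE, edgeR adjusted p = 0.288), and with no filter on low counts it passed (0.41, edgeR adjusted p = 0.0396).

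Ada (ENSMUSG00000017697, chr2:163726584-163750239, minus strand) encodes adenosine deaminase. In WT cells it had 165 and 264 counts (15.2 and 20.7 CPM) in the rTreg and 49 and 191 counts (5.38 and 12.2 CPM) in the aTreg libraries. Without Foxp1 it had 76 and 161 counts (12.1 and 11.6 CPM) in the rTreg and 55 and 37 counts (4.61 and 2.66 CPM) in the aTreg libraries. Both Foxp1-deficient aTreg libraries lay below the other 6, and WT aTreg replicate 2 lay within the range of the rTreg libraries. Ada fell 3.23-fold from rTreg to aTreg cells in Foxp1-deficient cells (log2 fold change -1.69 ± 0.39, SE, adjusted p = 0.0110). In WT cells the value was -1.005 ± 0.34 (SE, adjusted p = 0.0556), and between genotypes it was -0.61 ± 0.34 in rTreg cells (adjusted p = 0.289) and -1.30 ± 0.39 in aTreg cells (adjusted p = 0.0971).

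Most Ada values rested on single libraries. The fall in Foxp1-deficient cells was -1.07 (edgeR adjusted p = 0.0991) without Foxp1-deficient aTreg replicate 2, -1.47 (adjusted p = 0.0775) without Foxp1-deficient rTreg replicate 1, and -2.36 without Foxp1-deficient aTreg replicate 1, and it also missed the threshold in limma on log2(FPKM + 0.1) (-1.66, adjusted p = 0.0639) and on log2(FPKM + 1) with no filter (-1.28, adjusted p = 0.112). The WT value was -0.56 without WT aTreg replicate 1 (edgeR adjusted p = 0.258), and -1.75 without WT aTreg replicate 2, where it passed (edgeR adjusted p = 0.0132). It was -0.85 (edgeR adjusted p = 0.293) without WT rTreg replicate 2 and -1.11 (0.129) without WT rTreg replicate 1. It also passed in limma-voom (-1.01, adjusted p = 0.0428), in a fit of the WT libraries alone (-1.03, edgeR adjusted p = 0.00208), and without either Foxp1-deficient aTreg library (-1.03 and -1.02, edgeR adjusted p = 0.0254 and 0.0268). The genotype difference in aTreg cells came from pairs of -0.21 and -2.13. It passed without WT aTreg replicate 1 (-1.77, edgeR adjusted p = 0.0303) and with no filter on low counts (adjusted p = 0.00145), and was -0.58 without WT aTreg replicate 2, -0.67 without Foxp1-deficient aTreg replicate 2 and -1.96 without Foxp1-deficient aTreg replicate 1.

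Adenosine kinase (Adk), which returns adenosine to AMP inside the cell, stood among rTreg libraries at 23.2 and 28.6 CPM in WT and at 38.3 and 45.1 CPM without Foxp1. It rose 1.62-fold without Foxp1 in rTreg cells (log2 fold change 0.69 ± 0.12, SE, adjusted p = 0.0114). In aTreg cells Adk differed between genotypes by 0.37 ± 0.11 (log2, SE, adjusted p = 0.103). Among rTreg libraries the ratio of Adk to Ada FPKM was 1.72 and 1.55 in WT and 3.55 and 4.36 without Foxp1, and among aTreg libraries it was 6.54 and 2.75 in WT and 9.83 and 16.2 without Foxp1. The WT rTreg libraries had the lowest ratios and the Foxp1-deficient aTreg libraries the highest, with the other 2 groups overlapping between them. The highest ratios rest on 55 and 37 counts of Ada.

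Dpp4 (ENSMUSG00000035000, chr2:62330073-62412231, minus strand) encodes CD26. In WT cells Dpp4 stood at 99.7 and 104 CPM in the rTreg and 129 and 123 CPM in the aTreg libraries, and in Foxp1-deficient cells at 132 and 137 CPM in the rTreg and 136 and 130 CPM in the aTreg libraries. The WT rTreg libraries lay below the other 6, whose range was narrow. In rTreg cells Dpp4 was 1.32-fold higher without Foxp1 (log2 fold change 0.40 ± 0.065, SE, adjusted p = 0.00962, with 0.40 in both pairs), under the 1.5-fold minimum, and 1.24-fold higher in aTreg than in rTreg cells of WT mice (0.31 ± 0.065, adjusted p = 0.00958). In Foxp1-deficient cells the subsets differed by -0.018 ± 0.065 (log2, SE, adjusted p = 0.849) and in aTreg cells the genotypes differed by 0.080 ± 0.064 (adjusted p = 0.512). The difference between the genotype effects was -0.32 ± 0.092 (SE, edgeR adjusted p = 0.188). Dpp4 shares 232 exon bases with the antisense gene Gm13561, which had 6 to 21 counts per library, and the library kit does not mark strand.

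Slc29a1 (ENSMUSG00000023942, chr17:45585200-45599606, minus strand) encodes the nucleoside transporter ENT1. In WT cells Slc29a1 stood at 36.9 and 40.9 CPM in the rTreg and 86.3 and 68.1 CPM in the aTreg libraries, and in Foxp1-deficient cells at 37.0 and 31.7 CPM in the rTreg and 56.4 and 49.3 CPM in the aTreg libraries. WT aTreg cells were highest, Foxp1-deficient aTreg cells next, and the rTreg groups overlapped below them. Slc29a1 was 1.96-fold higher in aTreg than in rTreg cells of WT mice (log2 fold change 0.97 ± 0.11, SE, adjusted p = 5.26e-04) and 1.54-fold higher in Foxp1-deficient cells (0.63 ± 0.12, adjusted p = 0.00389), both under the 2-fold minimum. The WT value passed that minimum without WT rTreg replicate 2 (1.19), without WT aTreg replicate 2 (1.10) and in limma on log2(FPKM + 0.1) (1.02). In aTreg cells it was 1.45-fold lower without Foxp1 (-0.54 ± 0.11, adjusted p = 0.0288), just short of the 1.5-fold minimum, with -0.61 and -0.46 in the pairs. In rTreg cells the genotypes differed by -0.20 ± 0.12 (log2, SE, adjusted p = 0.325), and without WT rTreg replicate 2 by 0.011. Slc29a1 shares 275 exon bases with the antisense gene Gm17080, which had 1 to 15 counts per library.

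The question whether loss of Foxp1 acted differently in the 2 subsets was asked of all 7 genes with the interaction term. By edgeR 0 of 7 were called, against 0.33% of all genes tested. Entpd1, Dpp4 and P2rx7 (3 of 7) had an unadjusted p under 0.05, against 12.8% of all genes. DESeq2 called 1 of the 7, Entpd1, and 280 of all 14540 genes. Of the 70 other pathway genes tested, 0 were called by edgeR and 17 (24.3%) had an unadjusted p under 0.05.

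The remaining genes of the pathway were taken from lists of ectonucleotidases, enzymes of adenosine metabolism, nucleoside transporters, ATP release channels, P2 receptors, P1 receptors and cAMP signalling components. Of 96 in the table, 70 passed the filter. In rTreg cells 3 were higher and 6 lower without Foxp1, in a comparison where 5.6% of all genes tested were called. The 3 were Adk, Enpp1 (an ectoenzyme that releases AMP from ATP, log2 fold change 0.64 ± 0.13, SE, adjusted p = 0.0212) and Ahcyl2 (a relative of the enzyme that splits S-adenosylhomocysteine, 0.82 ± 0.066, adjusted p = 6.94e-04). Enpp1 stood at 19.9 and 25.2 CPM in WT rTreg and at 35.2 and 35.1 CPM in Foxp1-deficient rTreg cells. Among the 6 that fell, Slc28a2, a concentrative nucleoside transporter, went from 205 and 244 CPM to 139 and 157 CPM (log2 fold change -0.60 ± 0.082, SE, adjusted p = 0.00487), and P2rx4, another ATP-gated channel, went from 39.7 and 38.5 CPM to 26.9 and 21.8 CPM (-0.70 ± 0.10, adjusted p = 0.00661). The others were Samhd1, which breaks down deoxynucleotides (-0.64), the cAMP phosphodiesterases Pde8a (-0.95) and Pde4c (-1.13), and Prkar2b, a regulatory subunit of protein kinase A (-1.19). In aTreg cells Slc28a2 was also lower without Foxp1, under the 1.5-fold minimum (log2 fold change -0.49 ± 0.081, SE, adjusted p = 0.0158). P2rx4 differed there by -0.19 ± 0.099 (adjusted p = 0.299). Art2b, an ectoenzyme that modifies P2X7 from NAD, was called in none of the 4 comparisons, and its log2 fold changes were between -0.18 and 0.43. The median log2 fold change of the 70 genes was -0.074 in rTreg and -0.021 in aTreg cells, beside 0.0029 and 0.0018 over all genes tested. Without the replicate block, 2 of the 70 were called in rTreg and 0 in aTreg cells, beside 266 and 77 of all 14540 genes. With any 1 rTreg library left out, fewer of the 70 were called in rTreg cells, and fewer of all genes too.

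In aTreg cells 1 of the 70 rose and 2 fell without Foxp1, in a comparison where 4.03% of all genes tested were called. Dck, deoxycytidine kinase, which also phosphorylates deoxyadenosine, rose from 71.0 and 84.2 CPM to 109 and 135 CPM (log2 fold change 0.66 ± 0.070, SE, adjusted p = 0.00302). Rapgef4, which encodes the cAMP-activated exchange factor EPAC2, fell from 9.33 and 15.5 CPM to 6.87 and 5.25 CPM (-1.06 ± 0.25, adjusted p = 0.0451). Rapgef3, its relative, had 10 and 14 counts in WT aTreg and 2 and 3 counts in Foxp1-deficient aTreg cells (adjusted p = 0.0433). The number of the 70 called fell when WT aTreg replicate 2, Foxp1-deficient aTreg replicate 2 or any rTreg library was left out. It rose without WT aTreg replicate 1. Over all genes tested, fewer were called in each of these fits than with every library.

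**Figure D4:**
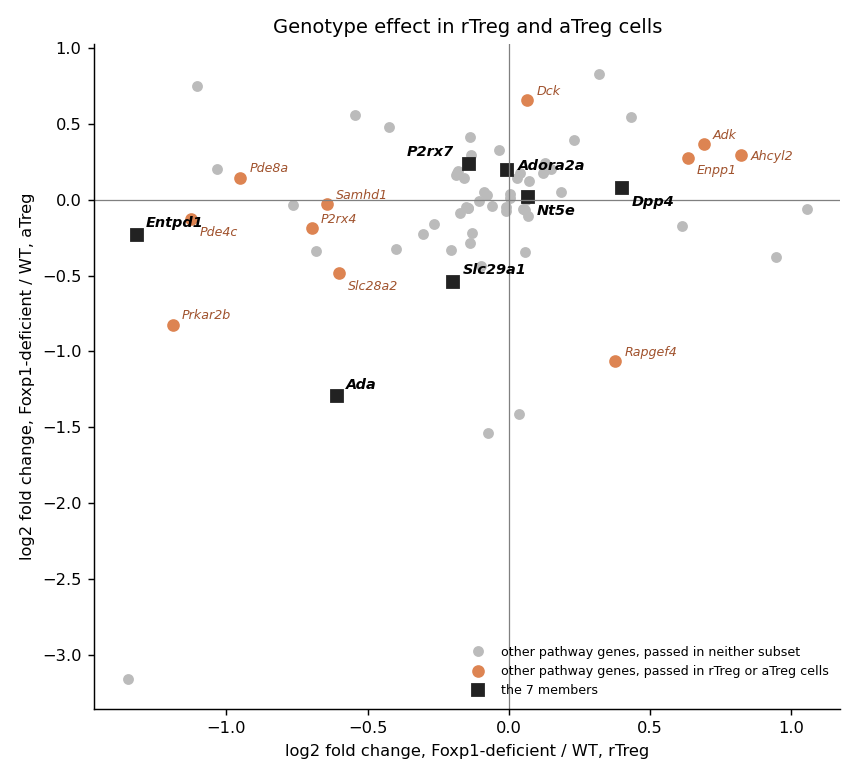
Fitted log2 fold change between Foxp1-deficient and WT cells in rTreg (x axis) and aTreg cells (y axis). Squares are the 7 genes and circles the other pathway genes, coloured where called in either subset, and 5 of 70 with a mean under 1 CPM are not drawn; Entpd1 lies at -1.32 in rTreg and -0.23 in aTreg cells.

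From rTreg to aTreg cells of WT mice, 5 of the 70 pathway genes rose and 7 fell, in a comparison where 12.3% of all genes tested were called. Cd38, an ectoenzyme that consumes NAD, rose from 8.01 and 6.28 CPM to 47.1 and 31.3 CPM (log2 fold change 2.44 ± 0.20, SE, adjusted p = 1.19e-04). Calhm2, a channel of the calcium homeostasis modulator family (1.80 ± 0.15, adjusted p = 1.34e-04), and the cAMP phosphodiesterase Pde7a (1.08 ± 0.092, adjusted p = 1.26e-04) also rose. The other 2 that rose were at low counts, Alpl (an alkaline phosphatase that can act on AMP) with 12 and 3 counts in rTreg and 40 and 27 in aTreg cells, and Slc29a4 (a relative of ENT1) with 5 and 8 against 33 and 47. Adcy6, an adenylyl cyclase and so a maker of cAMP, fell from 125 and 104 CPM to 9.22 and 21.2 CPM (-2.82 ± 0.31, adjusted p = 4.46e-04). Slc17a9, a transporter that loads vesicles with ATP (-1.39 ± 0.075, adjusted p = 1.70e-05), Ahcyl2 (-1.03) and the cyclase Adcy9 (-1.25) fell as well. Adcy1, another cyclase, had 16 and 22 counts in rTreg and 6 and 6 in aTreg cells, Ampd1 (AMP deaminase) 120 and 97 against 2 and 47, and Prkar1b (protein kinase A subunit) 43 and 31 against 8 and 3. The cyclases did not move together. Adcy7, named here after its values were seen, stood at 314 and 393 CPM in rTreg and 526 and 588 CPM in aTreg cells (0.66 ± 0.062, adjusted p = 1.97e-04, under the 2-fold minimum), and Adcy3 differed by -0.034 ± 0.12 (adjusted p = 0.859).

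In Foxp1-deficient cells 11 of the 70 rose and 7 fell from rTreg to aTreg cells, in a comparison where 15.7% of all genes tested were called. As in WT cells, Cd38 rose and Adcy6 and Ahcyl2 fell. Cd38 was at 6.69 and 4.33 CPM in rTreg against 49.96 and 56.1 CPM in aTreg cells (log2 fold change 3.34 ± 0.22, SE, adjusted p = 2.69e-05), Adcy6 at 135 and 102 CPM against 7.46 and 4.82 CPM (-4.27 ± 0.36, adjusted p = 7.83e-05), and Ahcyl2 at 611 and 578 CPM against 192 and 213 CPM (-1.55 ± 0.067, adjusted p = 4.68e-06). Rapgef4 fell (-2.06), and Crem, a cAMP-responsive transcription factor gene (1.41), Calhm2 (1.68), Pde4a (1.89) and Pde8a (1.33) rose. At low counts, Slc29a4 had 2 and 3 counts in rTreg and 63 and 80 in aTreg cells, Gda (guanine deaminase) 5 and 1 against 26 and 23, Ampd1 26 and 47 against 3 and 2, and Prkar1b 25 and 30 against 2 and 2. The other 6 that were called, 4 higher and 2 lower, changed by 1.09 to 1.29 on the log2 scale in size.

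For each of the 7 genes the most similar patterns were sought by Pearson's r of log2 CPM over the 8 libraries, as a description. The libraries share 4 groups and 2 replicate numbers, so that r follows both. Entpd1 was most like Fam53b (r = 0.995), Eif4ebp1, an inhibitor of cap-dependent translation (0.991), and Gprasp2 (0.991). Nt5e was most like Adam10, a surface metalloprotease (0.991), Arhgap5 (0.982) and Atxn7l1 (0.981). Adora2a was most like Itm2c, Nap1l3 and Gstt2, each at 0.997, of which Nap1l3 was at 0 CPM in WT rTreg cells. Genes with patterns close to that of P2rx7 included Khnyn (0.996) and Tvp23b (0.988). Ada was most like Lrp6, a Wnt co-receptor, Rev1, a DNA polymerase that bypasses lesions, and Cep295, each at 0.976. Dpp4 was most like Anp32b (0.980), Rhbdl3 (0.977) and Bora (0.972), and Slc29a1 was most like Atp9b (0.980), Cdyl (0.979) and Srgap3 (0.976). None of the genes nearest to a member was another member.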

How the data were processed

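RNA was made into libraries with the NEBNext Ultra kit and sequenced on the Illumina HiSeq X. The authors trimmed reads with trim_galore at a phred score of 20 and a minimum of 20 bp, removed duplicates with Picard and counted reads with htseq-count. The submitters' processing notes name HISAT2 2.0.5, HTSeq and mm10. The authors deposited raw counts per gene and FPKM values made from them. Removal of duplicates can lower the counts of abundant transcripts.

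Counts of all 8 libraries were fitted in edgeR 4.0.16 (R 4.3.3) with TMM normalization, filterByExpr (minimum count 10, 13054 genes left out), a term for each group and 1 for the replicate number (the block), as in the study's paired analysis. Across genes, same-numbered libraries deviated together between every pair of groups (correlation 0.355 to 0.597). CPM used TMM factors, and FPKM served for levels between genes and for alternatives. The fit was run on simulated counts with changes in Foxp1-deficient rTreg cells alone. These counts held no replicate effect, so the run did not test the block. Coordinates are from GENCODE M21, promoters from RefSeq. The genes, lists and comparisons were chosen with earlier results of these data known. Of the other pathway genes, up to 12 per comparison with the largest change were named. Results for 2 further genes are not reported here. Alternatives used limma 3.58.1 and DESeq2 1.42.0.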

Additional observations from a re-analysis of the deposited data

How the results depend on the processing

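Values were recomputed without the replicate block, with limma-voom, DESeq2, median-of-ratios size factors, no filter, a filter at 1 CPM in 2 libraries, the libraries of a comparison alone, limma on log2(FPKM + 1 or 0.1), no fold minimum, and without each library. Of 343 single-gene values under settings other than leaving out 1 library, 322 kept their direction and side of the threshold. Of 280 values without 1 library, 249 did so. The cause of each exception below was not tested. With 2 libraries per group, a left-out library leaves its group with 1, which is assumed to vary as the others do. Ada had the fewest counts of the 7 genes, 37 in Foxp1-deficient aTreg replicate 2.

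The replicate block changed the call of 1 member, Nt5e between subsets in WT cells (1.503 without it, adjusted p = 0.0681 by edgeR). Without the block 2 of 70 pathway genes were called in the rTreg and 0 in the aTreg genotype comparison, against 9 and 3 with it. Over all 14540 genes, 266 and 77 were called without the block, against 814 and 586 with it. Nt5e turned sign without it in the rTreg genotype effect (-0.029) and in the interaction (0.048).

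Of the 7 members, DESeq2 called 1 in the interaction, where it called 280 of all 14540 genes. With no filter, 2 were called in the interaction, beside 573 of all 27594 genes. With no filter 1 was called in the aTreg genotype comparison, beside 1035 of all genes. In limma on log2(FPKM + 1) with no filter, 0 of the 7 were called between genotypes in rTreg cells, beside 143 of 27594 genes. With no fold minimum 2 (rTreg genotype), 1 (aTreg genotype) and 6 (WT subsets) were called. Without 1 library the numbers also changed in each comparison, and so did the numbers called over all genes.

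Of the 70 pathway genes, limma called 4 (FPKM + 1), 3 (FPKM + 0.1) and 1 (no filter) in the rTreg genotype comparison, and 1, 0 and 0 in the aTreg one. Between subsets it called 6, 5 and 5 in WT and 10, 10 and 11 in Foxp1-deficient cells. In aTreg cells 7 were called between genotypes with no filter, 1 in the libraries of that comparison alone and 9 with no fold minimum. Having no fold minimum gave 29 and 37 between subsets in WT and Foxp1-deficient cells. Over all genes tested, 6.88% passed with no fold minimum between genotypes in aTreg cells. Between subsets 31.9% passed in WT and 40.1% in Foxp1-deficient cells. Without 1 library the numbers ran from 1 to 12 (rTreg genotype), 0 to 6 (aTreg genotype), 9 to 14 (WT subsets) and 14 to 19 (Foxp1-deficient subsets).

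Signs turned only in values that were not called with all libraries and the replicate block. Adora2a between genotypes in rTreg cells was 0.0065 in limma-voom. Nt5e between genotypes in aTreg cells was -0.0094, -0.0096 and -0.0094 in the 3 limma fits of FPKM. Dpp4 between subsets in Foxp1-deficient cells was 0.021 with no filter and 0.030, 0.031 and 0.030 in those fits. Over the fits without 1 library, the genotype effect in rTreg cells ran from -0.41 to 0.67 for Nt5e, from -0.094 to 0.058 for Adora2a and from -0.39 to 0.011 for Slc29a1. That in aTreg cells ran from -0.52 to 0.067 for Entpd1, from -0.19 to 0.25 for Nt5e and from -0.022 to 0.42 for Adora2a. The interaction ran from -0.65 to 0.42 for Nt5e, from -0.011 to 0.43 for Adora2a and from -1.34 to 0.028 for Ada, and Dpp4 between Foxp1-deficient subsets ran from -0.056 to 0.028.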
